A study of Mus musculus with 4 samples.

Results

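Glycolytic enzymes turn glucose into pyruvate in the cytosol and, with lactate dehydrogenase, into lactate. The 10 genes described here are Hk1, Hk2, Pfkl, Pfkm, Aldoa, Gapdh, Pgk1, Eno1, Pkm and Ldha. They were chosen by name as enzymes of aerobic glycolysis in progenitors and photoreceptors, and all 10 were found among the 22690 genes of the deposited table. RNA came from retinal cells of C57BL/6 mice at postnatal day 2, sorted for 4N DNA content, which marks cells that have copied their genome and not yet divided. The GFP-positive group (2 libraries) carries the label Casz1 cKO, a conditional knockout of a gene that encodes a zinc finger transcription factor. The GFP-negative group (2 libraries) is labelled wild type. Genotype and sorted fraction differ together between the groups and cannot be told apart. All cells had been kept for a short time in serum-free medium, and the labels name neither the animals per library nor the Cre driver nor the source of GFP. The series text speaks of 2 independent experiments.

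Glycolysis starts with the capture of glucose by hexokinases, is committed by phosphofructokinase and ends with pyruvate kinase. Lactate dehydrogenase then regenerates the cofactor that the GAPDH step needs. Dividing cells and the retina are textbook examples of aerobic glycolysis, in which much glucose leaves as lactate although oxygen is present. Most steps are served by several isoenzymes with their own genes, and the balance between them differs between cell types.

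The libraries differ in depth and in likeness. Each column name carries 1 of 2 numeric tags, called A and B here. Reads in genes numbered 22326119 and 89473701 in cKO libraries A and B, against 75832360 and 83753377 in wild-type libraries A and B. cKO library A stood apart, with a Pearson correlation across genes of 0.902 to 0.918 with the other libraries, against 0.988 to 0.993 among those. Casz1 had 8687 and 10772 normalized counts in cKO libraries A and B, against 13162 and 11995 in wild-type libraries A and B, and reads over the whole gene do not measure the deletion. No label ties a library to its own animals or culture, so p-values measure the spread between these libraries, which may be technical.

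Most of the 10 enzymes were about 1.6-fold to 2.1-fold higher in cKO library A than the wild-type mean, while cKO library B lay close to the wild-type level. All 10 had a positive log2 fold change of cKO over wild type, as did 6769 of all 14480 tested genes. The median was 0.40 for the 10 and −0.03 over all tested genes. It was 0.25 for tested genes at a mean of 20000 normalized counts or more, a class that holds 5 of the 10. From 5000 to 20000 it was 0.08, and from 1000 to 5000 it was −0.01. Of the 10, 0 passed the limma test over all genes (adjusted p of 0.771 to 0.793), where the share of all tested genes that passed was 0%. Pgk1 alone had an unadjusted limma p under 0.05, at 0.0493, and such a p was found in 1.89% of tested genes. On the recovered reads edgeR and DESeq2 also called 0 of the 10. Over all tested genes edgeR called 0% and DESeq2 0.00691%, and unadjusted p-values under 0.05 were found in 1.44% with edgeR and 2.55% with DESeq2.

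**Figure D1:**
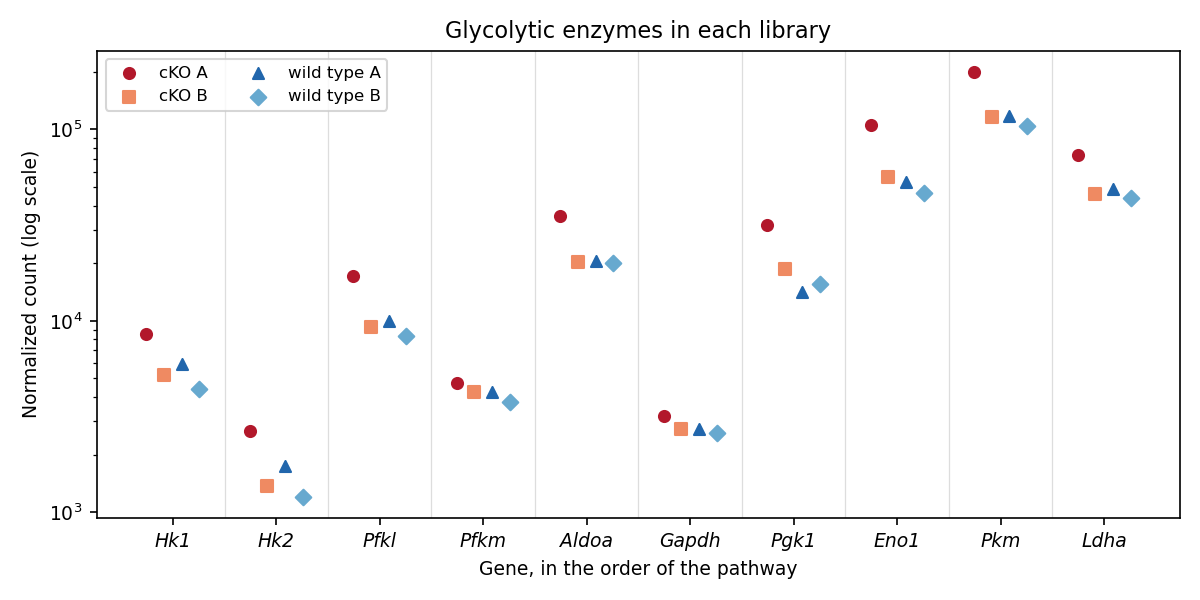
Normalized counts (log scale) of the 10 enzymes in each library, 1 point per library, with cKO libraries left of wild-type libraries. cKO library A has the highest value of all 10 genes, and cKO library B lies between the wild-type libraries for 7 of them.

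Promoters are shown for the members whose libraries did not overlap between the groups and for Ldha, which held the most matches. The windows run from 250 bases before to 50 bases after a RefSeq start on GRCm38.p6, read 5′ to 3′ on the gene's strand. Capitals mark ACGTG or its reverse complement CACGT, a form of the core of hypoxia response elements. The E-box CACGTG holds both. GCGTG, the other form of the core, was neither marked nor counted.
Pgk1 (chrX:106186850-106187149, plus strand): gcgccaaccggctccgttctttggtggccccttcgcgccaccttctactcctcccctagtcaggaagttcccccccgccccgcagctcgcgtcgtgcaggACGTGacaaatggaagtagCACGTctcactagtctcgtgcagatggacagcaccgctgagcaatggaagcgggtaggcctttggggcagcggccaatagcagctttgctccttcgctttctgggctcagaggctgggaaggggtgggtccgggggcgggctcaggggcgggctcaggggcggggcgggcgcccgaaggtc
Gapdh (chr6:125165724-125166023, minus strand): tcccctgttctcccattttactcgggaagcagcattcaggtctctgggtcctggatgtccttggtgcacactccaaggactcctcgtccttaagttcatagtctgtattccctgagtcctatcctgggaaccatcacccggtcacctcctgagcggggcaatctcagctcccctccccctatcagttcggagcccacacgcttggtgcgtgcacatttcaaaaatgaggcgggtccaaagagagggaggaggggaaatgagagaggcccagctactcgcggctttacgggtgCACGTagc
Eno1 (chr4:150236947-150237246, plus strand): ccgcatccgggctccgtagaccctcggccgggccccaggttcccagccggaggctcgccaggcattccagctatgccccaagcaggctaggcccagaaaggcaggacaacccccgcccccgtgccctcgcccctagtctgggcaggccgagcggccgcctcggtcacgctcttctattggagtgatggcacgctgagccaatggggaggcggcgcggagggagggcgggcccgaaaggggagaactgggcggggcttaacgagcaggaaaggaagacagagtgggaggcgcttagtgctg
Ldha (chr7:46845554-46845853, plus strand): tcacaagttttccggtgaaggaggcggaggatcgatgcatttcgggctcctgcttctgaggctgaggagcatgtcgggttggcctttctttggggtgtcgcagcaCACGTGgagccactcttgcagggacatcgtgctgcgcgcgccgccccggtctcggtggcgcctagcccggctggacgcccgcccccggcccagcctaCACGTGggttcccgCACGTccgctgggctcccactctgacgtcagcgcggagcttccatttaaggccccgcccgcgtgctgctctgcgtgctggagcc
All 10 genes had at least 1 window, 20 in all. Of these windows 50% held the letters on either strand, in 8 of the 10 genes, against 19.6% of all 32851 windows and 21.8% of 27025 genes. The 10 genes have 2 windows each on average, against 1.22 over all genes, and some windows of a gene overlap. Eno1, with 3 windows, and Pfkl, with 1, held neither ACGTG nor CACGT, and these genes were at log2 fold changes of 0.63 and 0.46. Gapdh held 1 match and Pgk1 2, at log2 fold changes of 0.15 and 0.72. Ldha, with 5 matched positions of which 4 lie in a pair of E-boxes, had 0.33. A match is a description of these letters and not of binding.

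Both hexokinases of the 10 were highest in cKO library A. Hk1 (chromosome 10, 62268855 to 62379908, minus strand, all positions on GRCm38), the widely expressed hexokinase, had 8578 and 5198 normalized counts in cKO libraries A and B, against 5982 and 4403 in wild-type libraries A and B. Hk2 (chromosome 6, 82725025 to 82774454, minus strand), the inducible hexokinase of growing tissues, had 2649 and 1367 in cKO libraries A and B, against 1736 and 1206 in wild-type libraries A and B. For both genes cKO library B lay between the wild-type libraries, so the groups overlap. The log2 fold change was 0.38 for Hk1 (SE 0.30) and 0.40 for Hk2 (SE 0.37), with an adjusted limma p of 0.771 for each.

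The phosphofructokinase subunits differed in how far cKO library A stood above wild type. Pfkl (chromosome 10, 77986947 to 78010083, minus strand), the liver-type subunit, had 17161 and 9248 normalized counts in cKO libraries A and B, against 10002 and 8350.3 in wild-type libraries A and B. Pfkm (chromosome 15, 98092589 to 98132451, plus strand), the muscle-type subunit, had 4708 and 4230.5 in cKO libraries A and B, against 4238 and 3781 in wild-type libraries A and B. Relative to the wild-type mean, cKO library A was at 1.87-fold for Pfkl and 1.17-fold for Pfkm. In cKO library B both lay inside the wild-type range. The log2 fold changes were 0.46 (SE 0.32) for Pfkl and 0.16 (SE 0.18) for Pfkm, with adjusted limma p of 0.771 and 0.781.

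Aldolase splits the sugar bisphosphate into triose phosphates. Aldoa (chromosome 7, 126795234 to 126800751, minus strand), the main aldolase gene here, had 35227 and 20372 normalized counts in cKO libraries A and B, against 20623 and 20054 in wild-type libraries A and B. cKO library A was at 1.73-fold of the wild-type mean and cKO library B at 1.00-fold. The log2 fold change was 0.40 (SE 0.29, limma adjusted p = 0.771).

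Gapdh, Pgk1 and Eno1 were the members whose libraries did not overlap between the groups. Gapdh (chromosome 6, 125161715 to 125166467, minus strand), which oxidizes glyceraldehyde phosphate, had 3177 and 2732 normalized counts in cKO libraries A and B, against 2728 and 2601 in wild-type libraries A and B. Its groups were separated only by the gap between 2732 and 2728, and its log2 fold change was the lowest of the 10, at 0.15 (SE 0.19). Pgk1 (chromosome X, 106187100 to 106203699, plus strand), which makes the first ATP of the pathway, had 31802 and 18702 in cKO libraries A and B, against 14107 and 15586 in wild-type libraries A and B. Pgk1 had the highest log2 fold change of the 10, at 0.72 (SE 0.29), and both cKO libraries stood above the wild-type mean, at 2.14-fold and 1.26-fold. Eno1 (chromosome 4, 150236721 to 150248879, plus strand), the widely expressed enolase, had 105484 and 56501 in cKO libraries A and B, against 53099 and 46811 in wild-type libraries A and B. Its log2 fold change was 0.63 (SE 0.33), with cKO libraries A and B at 2.11-fold and 1.13-fold of the wild-type mean. These 3 of 10 stand beside 17.2% of all tested genes with both cKO libraries above both wild-type libraries (22.3% had both below). Among genes whose mean normalized count reached 1000 or more the share was 20.9%. It was 46.9% at a mean of 20000 or more, a class that holds 5 of the 10, with Pgk1 and Eno1. From 5000 to 20000 it was 23.3%, and from 1000 to 5000, the class of Gapdh, 17.7%.

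These 3 genes also share much of their coding sequence with annotated copies. Of the distinct stretches of 50 bases in the coding sequence, 93.5% for Gapdh, 100% for Pgk1 and 75.1% for Eno1 occur also in transcripts of another gene in GENCODE M21. For Gapdh, stretches of its transcripts were found in 223 other genes. The shares were 53.6% for Pkm, 25.2% for Ldha and 16.8% for Aldoa, and between 0% and 4.05% for the hexokinase and phosphofructokinase members. The labels do not say how reads that match several places were counted, so the levels of Gapdh, Pgk1, Eno1 and Pkm are uncertain, and the part of shared sequence in these results was not tested.

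Pyruvate kinase and lactate dehydrogenase close the pathway. Pkm (chromosome 9, 59656368 to 59679375, plus strand), which gives the PKM1 and PKM2 splice forms, had 199709.9 and 115541 normalized counts in cKO libraries A and B, against 117806 and 104853 in wild-type libraries A and B. Counts per gene do not separate the splice forms. Ldha (chromosome 7, 46841475 to 46855627, plus strand), the A subunit that favours lactate formation, had 73483 and 46088 in cKO libraries A and B, against 48920.4 and 43901 in wild-type libraries A and B. cKO library B lay inside the wild-type range for both. The log2 fold changes were 0.45 (SE 0.31) for Pkm and 0.33 (SE 0.27) for Ldha, with an adjusted limma p of 0.771 for each.

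Summed over the 10 genes, the level was 481978 and 279979.5 normalized counts in cKO libraries A and B, against 279241 and 251546 in wild-type libraries A and B. That is 0.773% and 0.473% of all normalized counts in the cKO libraries, against 0.485% and 0.435% in the wild-type libraries. The mean was 380979 ± 142835 (SD, n = 2) in cKO and 265393 ± 19583 (SD, n = 2) in wild type, a ratio of 1.44. Both cKO sums were above both wild-type sums, cKO library B by a narrow margin, and the two-sided exact permutation test gave p = 0.333, the smallest that 2 libraries against 2 allow. Pkm, Eno1 and Ldha held 78.6% and 77.9% of the sum in cKO libraries A and B, against 78.7% and 77.7% in wild-type libraries A and B.

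Levels across the 10 genes were compared per kilobase of exon. Pkm was highest, with 31519 ± 11901 normalized counts per kilobase in cKO and 22262 ± 1831 in wild type (SD, n = 2 each). Ldha followed, with 18062 ± 5852 in cKO and 14021 ± 1072 in wild type on the same scale. Hk2 was lowest, with 336 ± 152 in cKO and 246 ± 62.8 in wild type. In wild type the order was Pkm, Ldha, Eno1, Aldoa, Pgk1, Pfkl, Pfkm, Gapdh, Hk1 and Hk2. The libraries of neighbours overlapped for 3 of 9 pairs in that order, Aldoa with Pgk1, Pfkl with Pfkm, and Gapdh with Hk1. In cKO the order had Pgk1 above Aldoa and Hk1 above Gapdh, and neighbours overlapped for 5 of 9 pairs. The level of Gapdh, 715 ± 76.0 per kilobase in cKO and 645 ± 21.7 in wild type, stands beside its 93.5% of shared coding stretches. Over its whole transcripts 25.1% of stretches were shared. Per kilobase of coding sequence Pkm stayed highest and Hk2 lowest, and Gapdh moved to the seventh place in both groups, with Hk1 above Pfkm. On that scale Eno1 stood above Ldha and Aldoa above Pgk1 in cKO, so the second place in cKO depends on the length used.

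The pattern rests on cKO library A. That library exceeded both wild-type libraries for 10 of 10 genes, while cKO library B lay inside the wild-type range for 7 of 10. Both cKO libraries were above the wild-type mean for 8 of 10, beside 27.6% of all tested genes and 32.1% of those with a mean of at least 1000. The share was 64.0% at a mean of 20000 or more, a class that holds 5 of the 10. It was 36.1% from 5000 to 20000, with 2 of the 10, and 27.7% from 1000 to 5000, with 3. Hk2 and Ldha were the members below the wild-type mean in cKO library B, at 0.930-fold and 0.993-fold. Without cKO library A the median log2 fold change of the 10 was 0.028, and limma called 0 of 10, beside 0.373% of all tested genes (0.0138% higher and 0.359% lower). With cKO library B left out the median was 0.82, and limma called 8 of 10 as higher, beside 39.8% of all tested genes called (12.9% higher and 26.9% lower). These fits take the spread of the lone cKO library from the wild-type pair. Leaving out either wild-type library gave 0 calls among the 10, and 0% of all tested genes. The members not called without cKO library B were Pfkm (limma adjusted p = 0.338) and Gapdh (0.312). The wild-type libraries differed among themselves too, with library A above library B for 9 of 10 members, all except Pgk1.

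**Figure D2:**
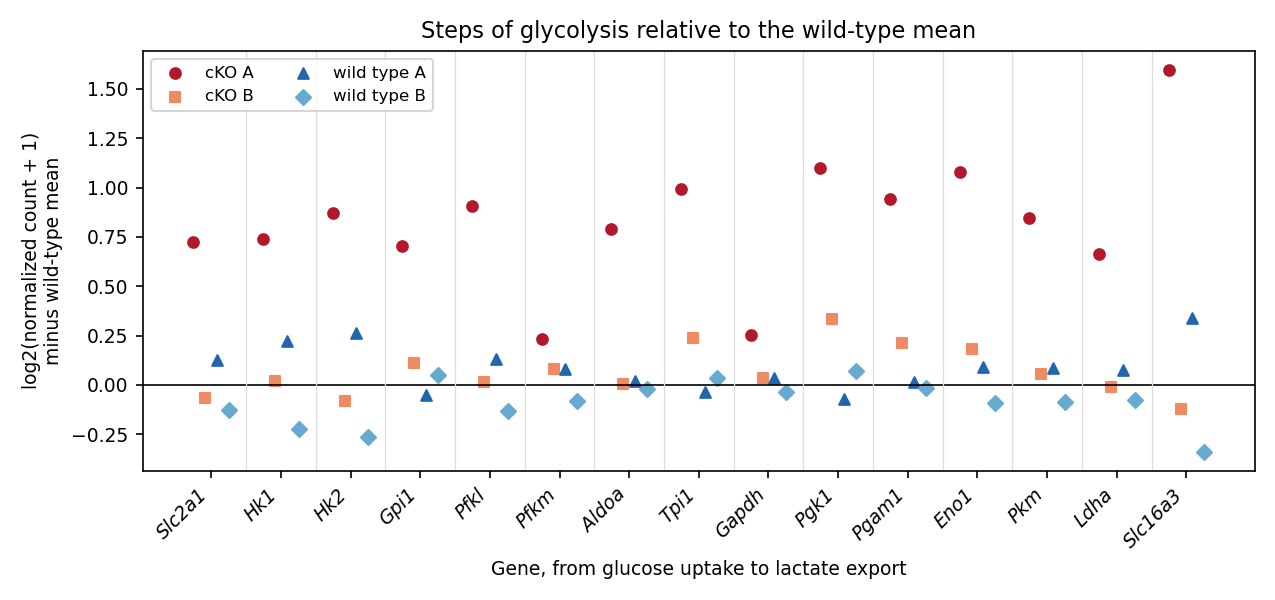
Difference of log2(normalized count + 1) from the wild-type mean for glucose uptake (Slc2a1), the steps of glycolysis and lactate export (Slc16a3), 1 point per library. cKO library A stands above both wild-type libraries at each gene drawn, by the least for Pfkm and Gapdh, and cKO library B stays within 0.34 of the wild-type mean. Pgam1 and Slc16a3 were added after their values were seen. Other tested enzymes and transporters are not drawn. Of these, Pfkp, Eno2, Eno3, Aldoc, Hk3, Slc2a5, Slc16a7 and Slc16a8 were lower in cKO library A than the wild-type mean. Hkdc1, Bpgm, Ldhb, Slc2a3, Slc2a4, Slc16a1 and Bsg were higher. The lactate carriers Slc16a3, Slc16a1 and Slc16a7 were at 2.94-fold, 1.36-fold and 0.370-fold in that library.

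Highly expressed genes as a whole were higher in cKO library A. Among the 431 tested genes at a mean of 20000 normalized counts or more, which hold Aldoa, Pgk1, Eno1, Pkm and Ldha, the median log2 difference from the wild-type mean was 0.35 in cKO library A, while cKO library B had 0.08. Of these genes, 46.9% had both cKO libraries above both wild-type libraries. In the class from 5000 to 20000, which holds Hk1 and Pfkl, the median in cKO library A was 0.14, and in the class from 1000 to 5000, which holds Hk2, Pfkm and Gapdh, it was −0.01. The members lay above most genes of their level in that library. In cKO library A 8 of 10 were above the upper quartile of their own class, all except Pfkm and Gapdh, and in cKO library B 1 of 10 was, Pgk1. Short genes were also higher there, with a median of 0.16 in cKO library A for genes under 2795 exon bases, against −0.24 for those of 6863 bases or more. The part of expression level, gene length and depth in the members' values was not tested.

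**Figure D3:**
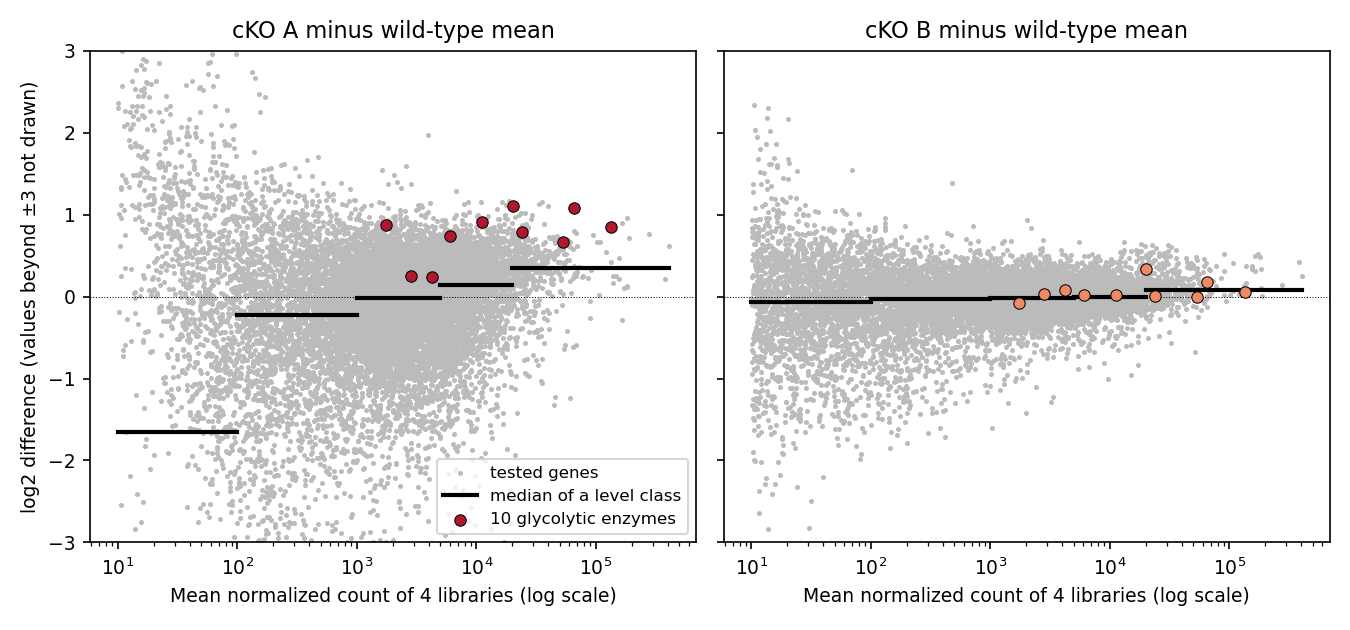
Log2 difference of each cKO library from the wild-type mean against mean normalized count, for all tested genes (grey), the 10 enzymes (coloured) and the median of each level class (black bars). In cKO library A the class medians climb to 0.35 and all 10 enzymes lie above their bar, while in cKO library B they lie near 0.

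Enzymes of the pathway outside the 10 were split. Of 17 other glycolytic enzymes and isoenzymes examined, 11 were tested, 6 with a positive and 5 with a negative log2 fold change and a median of 0.07. None of the 11 passed in limma, and 1 had an unadjusted p under 0.05. Gpi1, the isomerase of the second step, had 28449 and 18871 normalized counts in cKO libraries A and B, against 16870.4 and 18057 in wild-type libraries A and B. Tpi1, triose phosphate isomerase, had 44917 and 26583 in cKO libraries A and B, against 22012 and 23154 in wild-type libraries A and B. Pgam1, phosphoglycerate mutase, had 11545 and 6983 in cKO libraries A and B, against 6078 and 5958 in wild-type libraries A and B. For each of these 3 both cKO libraries stood above both wild-type libraries, beside 46.9% of all genes in the level class of Gpi1 and Tpi1 and 23.3% in that of Pgam1, which was added after its values were seen. Over the 11 tested genes of the list, 5 were higher and 3 lower without overlap, beside 17.2% and 22.3% of all tested genes. Of the coding stretches of 50 bases, 100% for Pgam1, 38.7% for Gpi1 and 13.7% for Tpi1 occur also in another gene, so the levels of Pgam1 and Gpi1 are uncertain too. Over whole transcripts the shares were 36.2% for Pgam1, 15.8% for Gpi1 and 4.18% for Tpi1. The log2 fold changes were 0.41 for Gpi1, 0.61 for Tpi1 and 0.58 for Pgam1 (limma adjusted p = 0.771 for each).

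Several isoenzymes known from neurons, muscle or blood cells were lower in cKO library A. For Eno2, Aldoc and Hk3 both cKO libraries were below both wild-type libraries, as for 22.3% of all tested genes. In the level class of each gene that share was 21.6% (Eno2), 26.3% (Aldoc) and 29.1% (Hk3). Eno2, the neuronal enolase, had 1710.0 and 2379 normalized counts in cKO libraries A and B, against 3067 and 3395 in wild-type libraries A and B. Its log2 fold change was −0.68 (SE 0.23, limma adjusted p = 0.771), and the groups did not overlap. Aldoc, the aldolase of brain, had 402 and 383 in cKO libraries A and B, against 597 and 429 in wild-type libraries A and B. Pfkp, the platelet-type subunit, had 2649 and 5334 in cKO libraries A and B, against 5197 and 4964 in wild-type libraries A and B, so only cKO library A was low. Eno3, the muscle enolase, was at 142 and 1503 in cKO libraries A and B, against 1467 and 1726 in wild-type libraries A and B. Hk3, a hexokinase of myeloid cells, had 0 and 49.6 in cKO libraries A and B, against 103 and 104 in wild-type libraries A and B, where 3 reads in cKO library A would be 8.38 normalized counts. Ldhb, the B subunit of lactate dehydrogenase, had 11517 and 9659.5 in cKO libraries A and B, against 8218 and 8829 in wild-type libraries A and B.

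Hkdc1, the hexokinase domain gene beside Hk1 on chromosome 10, was the most abundant of the 4 genes Hk1, Hk2, Hk3 and Hkdc1. It had 16161 and 12751 normalized counts in cKO libraries A and B, against 14944 and 12529 in wild-type libraries A and B. Per exon base it made up 68.5% and 74.5% of their sum in cKO libraries A and B, against 74.1% and 76.6% in wild-type libraries A and B. Its log2 fold change was 0.07 (SE 0.21, limma adjusted p = 0.905), and none of its 50-base stretches occurred in another gene. Gapdhs, Pgk2, Pklr and Ldhc, forms of testis or of liver and red cells, had 0 reads in all libraries.

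Ratios within a library do not depend on the scaling between libraries. Hk2 made up 30.6% and 27.3% of Hk1 plus Hk2 per exon base in cKO libraries A and B, against 29.3% and 28.1% in wild-type libraries A and B (two-sided exact permutation p = 1.00). Pfkl made up 64.6% and 52.2% of Pfkl plus Pfkm in cKO libraries A and B, against 54.1% and 52.5% in wild-type libraries A and B (two-sided exact permutation p = 1.00). The higher Pfkl share was seen in cKO library A, and cKO library B lay just below the wild-type libraries. Eno1 made up 98.2% and 95.4% of Eno1 plus Eno2 in cKO libraries A and B, against 93.8% and 92.3% in wild-type libraries A and B, with no overlap between the groups (two-sided exact permutation p = 0.333). Ldha made up 75.2% and 69.4% of Ldha plus Ldhb in cKO libraries A and B, against 73.8% and 70.2% in wild-type libraries A and B. Aldoa made up 99.0% and 98.3% of Aldoa plus Aldoc in cKO libraries A and B, against 97.5% and 98.1% in wild-type libraries A and B. For Aldoa too the groups did not overlap (two-sided exact permutation p = 0.333). Over these 5 pairs no exact p could fall under 0.333, so an adjustment changes no call.

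**Figure D4:**
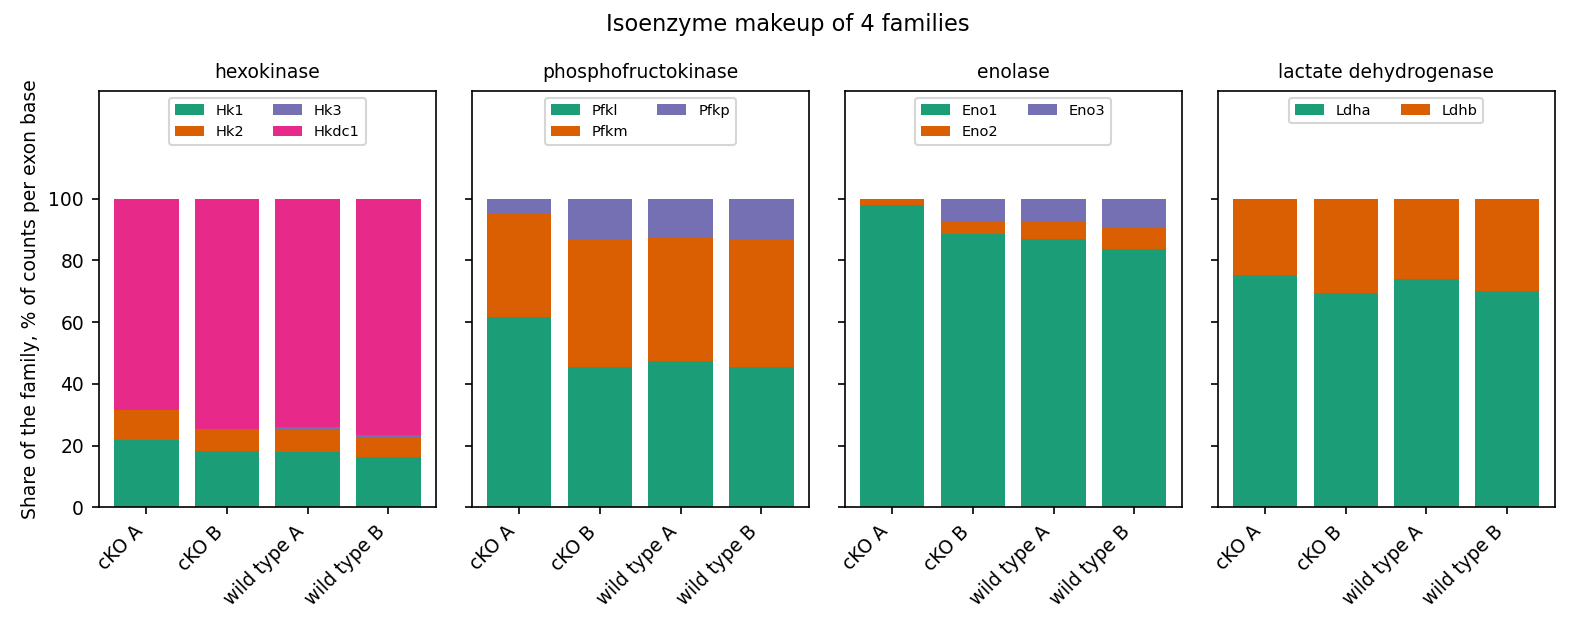
Share of each isoenzyme in its family, in percent of normalized counts per exon base, 1 bar per library, for hexokinases, phosphofructokinases, enolases and lactate dehydrogenases. Hkdc1 fills most of the hexokinase bar in each library, and Eno1 and Pfkl fill more of their bars in cKO library A.

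Genes around glycolysis were listed by function, and of none of these lists did a member pass in limma. Of the 9 tested transporters of glucose and lactate 6 had a positive log2 fold change, with a median of 0.30. Slc2a1, the main glucose carrier of the retina, had 62371 and 36107 normalized counts in cKO libraries A and B, against 41166 and 34607 in wild-type libraries A and B. Bsg, the chaperone of lactate transporters, had 22679 and 16989 in cKO libraries A and B, against 15747 and 16011 in wild-type libraries A and B. Slc2a5, a fructose carrier that microglia also express, had 89.4 and 122 in cKO libraries A and B, against 210.3 and 177 in wild-type libraries A and B. Slc2a1 in cKO library B lay inside the wild-type range, as did 7 of the 10 enzymes.

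Regulators of the flux were mostly negative. Of 10 tested regulators 9 had a negative log2 fold change, with a median of −0.40. Pfkfb2, which makes the activator of phosphofructokinase, had 1495 and 2816 normalized counts in cKO libraries A and B, against 3516 and 3336 in wild-type libraries A and B, a log2 fold change of −0.74. Txnip, an inhibitor of glucose uptake, had 12881 and 16766 in cKO libraries A and B, against 12708 and 16796 in wild-type libraries A and B, so both A libraries were below both B libraries. Mlxip, a glucose-sensing transcription factor, had a log2 fold change of −0.28. For these regulators the median difference from the wild-type mean was −0.68 in cKO library A, while cKO library B had −0.11.

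Of 13 genes of pyruvate entry into mitochondria 11 had a positive log2 fold change, with a median of 0.26. Among them Mpc2, a subunit of the pyruvate carrier, had 0.35, Pdhb, a subunit of pyruvate dehydrogenase, had 0.13, and Dld had 0.00. Of the pentose phosphate enzymes 7 of 7 tested were positive, with a median of 0.30, Tkt (transketolase) at 0.31 and Taldo1 (transaldolase) at 0.33. The 3 tested genes of gluconeogenesis had a median of 0.21, with Pcx at 0.52 and G6pc3 at 0.14. In cKO library B alone the medians of the pyruvate, pentose phosphate and gluconeogenesis lists were 0.02, 0.04 and −0.04.

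The hypoxia response outside glycolysis was split, with 9 of 18 genes positive and a median of −0.01. Hif1a, the oxygen-regulated factor that drives many glycolytic genes, had 27946 and 24996 normalized counts in cKO libraries A and B, against 24290.1 and 24725 in wild-type libraries A and B. Epas1, which encodes the related factor HIF-2α, had 1221 and 1058 in cKO libraries A and B, against 2539 and 1751 in wild-type libraries A and B, a log2 fold change of −0.89 (SE 0.25, limma adjusted p = 0.771). Ndrg1, a hypoxia-induced gene, had a log2 fold change of −0.15. Of the MYC family, whose factors also drive glycolytic genes, 3 of 6 were positive, with Mycn at −0.17, Mycl at 0.21 and Mxd3 at 0.56.

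Markers of several cell types differed between the groups, and 0 of them passed in limma. Microglial markers were lower for 12 of 12, with a summed level of 1224 and 8756 normalized counts in cKO libraries A and B, against 20617 and 19449.8 in wild-type libraries A and B, and Aif1 was at 0 in cKO library A. Rod markers were lower for 14 of 15, with sums of 60494 and 69446 in cKO libraries A and B, against 117087 and 103908 in wild-type libraries A and B, and cone markers for 9 of 9 tested, with sums of 21701 and 34006 in cKO libraries A and B, against 39977 and 51683 in wild-type libraries A and B. Progenitor markers were higher for 8 of 10, with sums of 646338 and 508967 in cKO libraries A and B, against 466383 and 456557 in wild-type libraries A and B. Genes of G2 and M phase were higher for 8 of 10, with sums of 149481 and 151226 in cKO libraries A and B, against 127361 and 143691 in wild-type libraries A and B. Astrocyte markers were lower for 6 of 6, and ganglion and amacrine markers for 3 of 10. Endothelial markers were lower for 2 and higher for 4 of 6 tested. Their sums were 50195 and 40124 in cKO libraries A and B, against 44061 and 39095 in wild-type libraries A and B. Pecam1, Cdh5, Tek and Emcn were at 0 in cKO library A, which had the fewest reads. The endothelial sum there came from the other markers of the list. All 6 erythroid markers were at 0 in cKO library A, and 2 of them in wild-type library B. Only 1 erythroid marker was tested. The erythroid sums were 0 and 47.6 in cKO libraries A and B, against 97.2 and 16.6 in wild-type libraries A and B. Fewer cells of a type and less RNA per cell cannot be told apart in these sorted pools, and the part of the cell makeup in the values of the glycolytic enzymes was not tested.

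The genes most alike in pattern were chosen by the root mean square distance of centred log2 values from the mean profile of the 10 enzymes, over 4 libraries and 8523 candidate genes. They were Fto, Hars, Akr1b3, Psmd13 and Met, at distances of 0.011, 0.015, 0.015, 0.018 and 0.019. Among the 10 themselves Ldha (0.041) and Pkm (0.043) lay closest to their mean profile and Pfkm (0.226) farthest.

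In the authors' deposited table the adjusted p-value was 1.00 for each of the 10 genes, and the lowest unadjusted p-value there was 0.110 for Pgk1.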

How the data were processed

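RNA enriched for mRNA was sequenced from 4 libraries with a stranded kit. The submitters' processing notes name FastQC, TopHat, HTSeq, DESeq and mm10, without settings or the use of strand in counting, so overlapping antisense genes are uncertain. The table deposited by the authors holds a signal, the normalized count, and p-values with their adjusted form, per the file headers. Values in each library (100%) were whole multiples of the value of 1 read within 0.01 reads, so reads were recovered (edgeR called 0 genes on them, DESeq2 1). Both cKO columns are headed replicate 2, so they are known by group only. The columns with the authors' ratios were not used.

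The 14480 genes whose mean reached 10 entered limma as log2(normalized count + 1), with a trend, a two-sided test and Benjamini-Hochberg adjustment at 0.05. The fit was tested on simulated data whose spread was taken from the libraries other than cKO library A. That simulation therefore does not cover the spread of cKO library A. The added 1 understates ratios of low genes. Members and lists were chosen with earlier results of these data known. Named were all members, isoenzymes of their families, Casz1, and of each list the called genes or else the 2 with the highest mean and the 1 with the lowest p among those with a mean of at least 50. Pgam1 and Slc16a3 were added after their values were seen, and marker lists are given by counts and sums. One isoenzyme is not reported here and was left out of its list and of the family shares. In the same rule, the 5 genes most alike had a mean of at least 1000. Each member had at least 948 reads in each library. Libraries of a group differed beyond sampling noise (chi-square per degree of freedom of 126 for cKO and 74.1 for wild type). Lengths and positions are from GENCODE M21, which holds 96.1% of the gene identifiers, and promoters are from RefSeq. Software was R 4.3.3, limma 3.58.1, edgeR 4.0.16, DESeq2 1.42.0 and Python 3.11.15.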

Additional observations from a re-analysis of the deposited data

How the results depend on the processing

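The fit had 2 residual degrees of freedom, and the SE of the members was 0.18 to 0.37 on the log2 scale. With other pseudocounts (0.5 and 5), filters (none, means of at least 50 and, chosen after seeing the data, 1000), a median rescaling, TMM scaling, limma without the trend, edgeR, DESeq2 and the replicate block, 0 of the 10 members were called and all 10 log2 fold changes stayed positive; the number of genes called over all genes stayed at 0 except for 1 in DESeq2 (Nr2e3, lower). Medians of the 10 members were 0.40 to 0.49 in these alternatives, and median rescaling moved the median of all genes to 0.06. Each tag is carried by a cKO and a wild-type column, and the labels do not say whether a tag marks an experiment. Same-tag deviations correlated at 0.258. In the replicate block fit 0 genes and 0 of the 10 members were called. There 1375 of 14480 genes had an unadjusted limma p under 0.05, beside 274 in the main fit. In the block fit the members' median was 0.40, and the summed level had a log2 ratio of 0.47. Over left-out libraries the genes called ranged from 0 to 5768, the members called from 0 to 8, the members' median from 0.028 to 0.82, and the called genes of the other lists from 0 to 90. Hk2 ranged from −0.081 to 0.87 and Ldha from −0.0080 to 0.67. The share of Hk2 in Hk1 plus Hk2 ranged from −1.40 to 1.90 percentage points of cKO minus wild type, and that of Pfkl in Pfkl plus Pfkm from −1.08 to 11.3. The highest value of each came without cKO library B and the lowest values of these log2 fold changes and shares without cKO library A; the cause was not tested.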
